A study of Mus musculus with 12 samples.

Results

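The genes described here were 35 genes of the ATF4 stress program: the transcription factor ATF4, its partner factors and feedback genes, its targets in amino acid synthesis and transport, and 13 of the cytosolic aminoacyl-tRNA synthetases. They were listed by name, with no threshold on a measured value but with earlier results of these data known, and all 35 were found among the 47937 genes of the count table. By role they were 10 stress factors and feedback genes, 8 genes of amino acid and one-carbon synthesis, 4 genes of amino acid transport and 13 tRNA synthetase genes. Of the 35, 34 passed the filter on low counts and were tested. Pycr1, which encodes an enzyme of proline synthesis, did not pass, with 5 reads over the 3 M0 libraries, 7 in M0 + DGAT1i, 1 in IFNγ + LPS and 0 in IFNγ + LPS + DGAT1i.

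RNA sequencing was performed on macrophages grown from bone marrow of C57BL/6 mice, which the methods give as 6 to 8 weeks old, for 7 days in 20 ng/ml CSF-1, the growth factor that drives macrophage differentiation. The study compared 4 groups of 3 libraries: resting macrophages (M0), macrophages stimulated with 50 ng/ml IFNγ and 20 ng/ml LPS (IFNγ + LPS), and both states with 50 µM T863 (DGAT1i). T863 is an inhibitor of DGAT1, the enzyme that makes triacylglycerol from diacylglycerol. The stimulated and the inhibitor-treated groups were labelled 18 h, and the M0 labels gave no time. All 4 groups come from the same strain and the same kind of culture. The descriptions of 2 of the 3 M0 + DGAT1i libraries name the inhibitor as T864 and T865, whereas their source name gives T863. The comparisons asked how activation changed the ATF4 genes, how DGAT1i changed them in resting and in activated cells, and whether the DGAT1i response differed between the states. Neither the labels nor the methods say which mouse gave which library, so p-values measure the spread between these samples.

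As background, ATF4 is a basic leucine zipper factor whose protein is made when kinases that sense amino acid shortage, misfolded protein, viral RNA or haem deficiency phosphorylate the translation initiation factor eIF2. It binds composite C/EBP-ATF response elements, often as a dimer with C/EBP proteins, and switches on genes for amino acid synthesis, uptake and tRNA charging together with its own feedback genes. In macrophages, amino acid supply and translation are known to change with inflammatory activation, and some synthetase genes, tryptophanyl-tRNA synthetase foremost, are also interferon targets.

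To show which members carry such an element in the sequence, promoter windows of 28 members were taken from the RefSeq promoter table (GRCm38.p6). Each ran from 250 bases before to 50 after an annotated start site. Both strands were searched for the element core TGATGNAA. It was found in 10 of 28 members (35.7%), beside 1219 of 27025 genes in the same table (4.51%). These members held 11 matches, of which 7 lay before and 4 after the start site. Of these, 10 are shown 5′ to 3′ along the element, in capitals, with 10 bases on each side.
Aars at 10 bases after the start, chr8:111033851-111033858: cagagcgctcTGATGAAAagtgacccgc
Asns at 23 bases before the start, chr6:7693225-7693232: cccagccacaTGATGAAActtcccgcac
Atf3 at 110 bases before the start, chr1:191183436-191183443: gcggacttggTGATGCAAgtgcgagaag
Chac1 at 193 bases before the start, chr2:119351049-119351056: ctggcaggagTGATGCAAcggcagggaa
Gars at 30 bases before the start, chr6:55037971-55037978: gcccggtgcaTGATGAAAtagcgcagcc
Iars at 8 bases after the start, chr13:49682137-49682144: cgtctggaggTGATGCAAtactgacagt
Pycr1 at 103 bases before the start, chr11:120643844-120643851: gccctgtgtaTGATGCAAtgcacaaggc
Tars at 15 bases before the start, chr15:11399666-11399673: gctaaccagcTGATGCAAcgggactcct
Trib3 at 15 bases after the start, chr2:152344039-152344046: cccgcccggcTGATGTAAacctgagcta
Yars at 4 bases after the start, chr4:129189906-129189913: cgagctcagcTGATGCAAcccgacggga
Of the matches, 7 read TGATGCAA, 3 read TGATGAAA (in Aars, Asns and Gars) and the one in Trib3 reads TGATGTAA. Cars, Eif4ebp1, Lars, Nars, Slc7a5, Vars and Wars were not matched in the table. A match is only a match of letters, not evidence of binding.

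The 250 bases upstream of 3 members show how the element sits in genes whose levels moved in these data. Each is given on the strand of its gene with the match in capitals. Asns has the core close to the start, Chac1 far upstream, and Gars is a synthetase gene with the core close to the start. In Chac1 and Gars the core is on the opposite strand, so that the capitals read TTNCATCA, its reverse complement.
Asns upstream, chr6:7693210-7693459, minus strand: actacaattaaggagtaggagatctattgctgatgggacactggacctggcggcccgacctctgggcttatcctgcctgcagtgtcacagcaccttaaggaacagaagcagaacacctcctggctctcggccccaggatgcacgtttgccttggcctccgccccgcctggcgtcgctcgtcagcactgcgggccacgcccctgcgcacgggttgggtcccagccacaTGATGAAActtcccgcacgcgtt
Chac1 upstream, chr2:119350992-119351241, plus strand: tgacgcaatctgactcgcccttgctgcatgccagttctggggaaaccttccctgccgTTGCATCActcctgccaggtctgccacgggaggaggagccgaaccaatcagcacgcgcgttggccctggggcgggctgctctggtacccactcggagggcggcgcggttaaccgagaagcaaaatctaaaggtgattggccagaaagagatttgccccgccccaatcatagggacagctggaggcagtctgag
Gars upstream, chr6:55037751-55038000, plus strand: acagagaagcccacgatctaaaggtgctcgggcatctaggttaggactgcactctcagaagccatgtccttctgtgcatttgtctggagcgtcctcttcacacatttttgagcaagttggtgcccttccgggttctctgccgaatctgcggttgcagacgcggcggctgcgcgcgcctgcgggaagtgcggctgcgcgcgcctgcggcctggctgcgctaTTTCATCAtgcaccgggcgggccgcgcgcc
The interferon gamma activated site TTCNNNGAA was found in 4 of the 28 members (14.3%; Aars, Aldh18a1, Shmt2 and Slc7a1) and in 9.55% of all genes in the table. The CCAAT box was found in 18 of 28 members (64.3%) and in 41.1% of all genes. None of the 11 element matches overlapped a match of either motif.

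**Figure D1:**
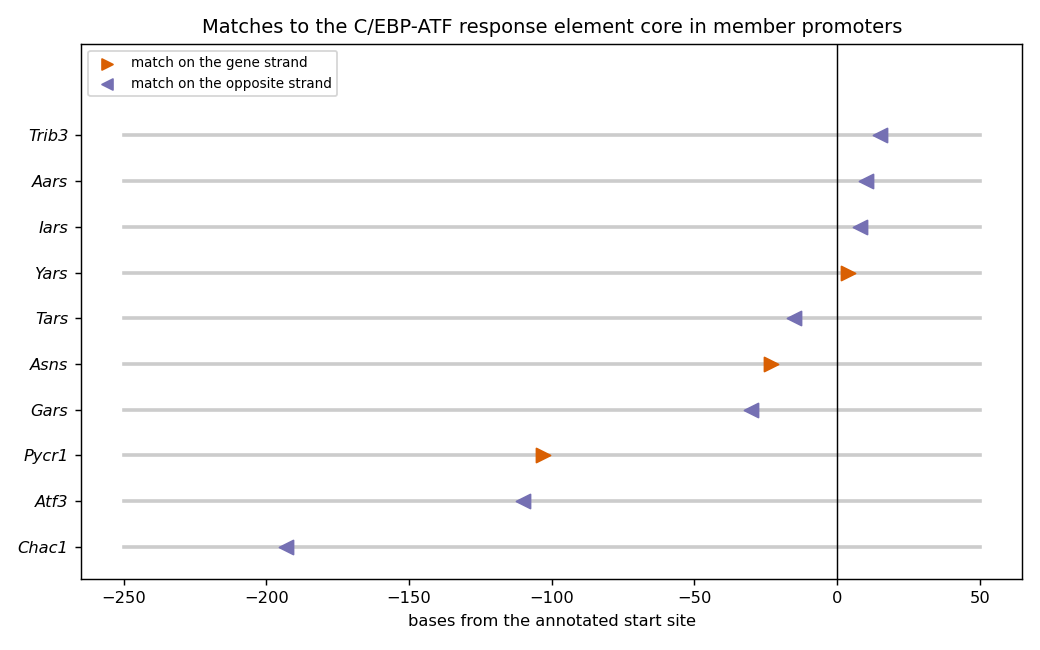
Position of 10 of the 11 matches to TGATGNAA (horizontal axis, bases from the annotated start site, negative values upstream) in the 300-base promoter windows of 10 members, with triangles pointing right for matches on the strand of the gene and left for the opposite strand. The matches run from 193 bases upstream in Chac1 to 15 bases downstream in Trib3.

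The deposited values were raw read counts, and levels are given as CPM, the reads of a gene relative to its library's total after TMM scaling, a correction for the make-up of the library. Library totals ranged from 4996014 to 6621671 reads, so that 1 CPM stands for 4.28 to 7.58 reads, and libraries of a group correlated with r of 0.988 to 0.992. The 8 macrophage marker genes summed to 14635 to 15615 CPM in M0, 17041 to 19152 in M0 + DGAT1i, 8263 to 8911 in IFNγ + LPS and 7859 to 8814 in IFNγ + LPS + DGAT1i. They did not move together: 3 rose and 5 fell with IFNγ + LPS. With DGAT1i 3 rose and 2 fell in M0, and 1 rose and 3 fell in IFNγ + LPS. Summed B cell, T cell, mast cell and stromal markers stayed under 0.6 CPM in every library, and the 4 erythroid markers had 0 reads. The 5 dendritic cell markers summed to 0.13 to 0.84 CPM in M0, 0.26 to 0.57 in M0 + DGAT1i, 5.62 to 7.16 in IFNγ + LPS and 1.04 to 1.40 in IFNγ + LPS + DGAT1i. The 1 of them that was tested rose with IFNγ + LPS and fell with DGAT1i there. Markers of neutrophils and their progenitors (9 genes) summed to 34.5 to 41.2 CPM in M0, 24.8 to 30.7 in M0 + DGAT1i, 52.2 to 62.9 in IFNγ + LPS and 96.2 to 114 in IFNγ + LPS + DGAT1i, with Ly6g at 0 reads throughout. In DGAT1i-treated IFNγ + LPS cells 4 of the 5 neutrophil genes tested rose and 1 fell, and the part of either list in the results below was not tested. Fewer cells of a type and less RNA per cell cannot be told apart in such bulk samples.

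IFNγ + LPS raised most of the members. With edgeR's quasi-likelihood test and a Benjamini-Hochberg adjusted p under 0.05 over 11760 genes, 22 of the 34 members tested were higher and 8 lower than in M0 (30 of 34, or 88.2%, in either direction). The median log2 fold change was 0.65 beside 0.01 over all genes. The background was high, since 73.3% of all genes tested were called, 37.1% higher and 36.2% lower. The 3 IFNγ + LPS libraries lay wholly above or below the 3 M0 libraries for 29 of 34 members, and for 75.4% of all genes. Scaling by library size alone moved the median of all genes to -0.46, and with it the members to 17 higher and 14 lower.

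DGAT1i in IFNγ + LPS cells lowered most of the members: 21 of 34 were lower and 3 were higher (24, or 70.6%, in either direction), with a median log2 fold change of -0.31 beside -0.01 over all genes. In the background, 29.8% of all genes tested were called, 16.3% lower and 13.5% higher. Groups did not overlap for 24 of 34 members and for 39.7% of all genes. In M0 cells, DGAT1i raised 9 members and lowered 3, with a median of 0.10, where 24.4% of all genes were called, 11.0% higher and 13.4% lower. There the groups did not overlap for 15 of 34 members and for 37.8% of all genes, beside a share of members called of 35.3%.

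The DGAT1i response itself differed between the states for 22 of the 34 members (64.7%), tested as the interaction of inhibitor and activation in the same fit. All 22 were more negative in IFNγ + LPS cells than in M0 cells, with a median difference of -0.44 over the 34 members, where 18.5% of all genes tested were called, 9.80% lower and 8.66% higher. Members with a more positive response numbered 0 by edgeR's adjusted p and by DESeq2, and 1, Psph, at an unadjusted p under 0.05. The members that rose with DGAT1i in M0 and fell with it in IFNγ + LPS were 6, namely Atf4, Trib3, Asns, Mthfd2, Sars and Eprs. Atf3 rose in both, Psat1 and Shmt2 fell in both, and 13 members fell in IFNγ + LPS alone by these calls. Of these 13, 12 also passed the test of the difference, Lars being the exception. The crossed calls were not counted over all genes, so no background share stands beside them. Some were lost with a library left out, among them the Trib3 call in IFNγ + LPS and both Eprs calls.

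**Figure D2:**
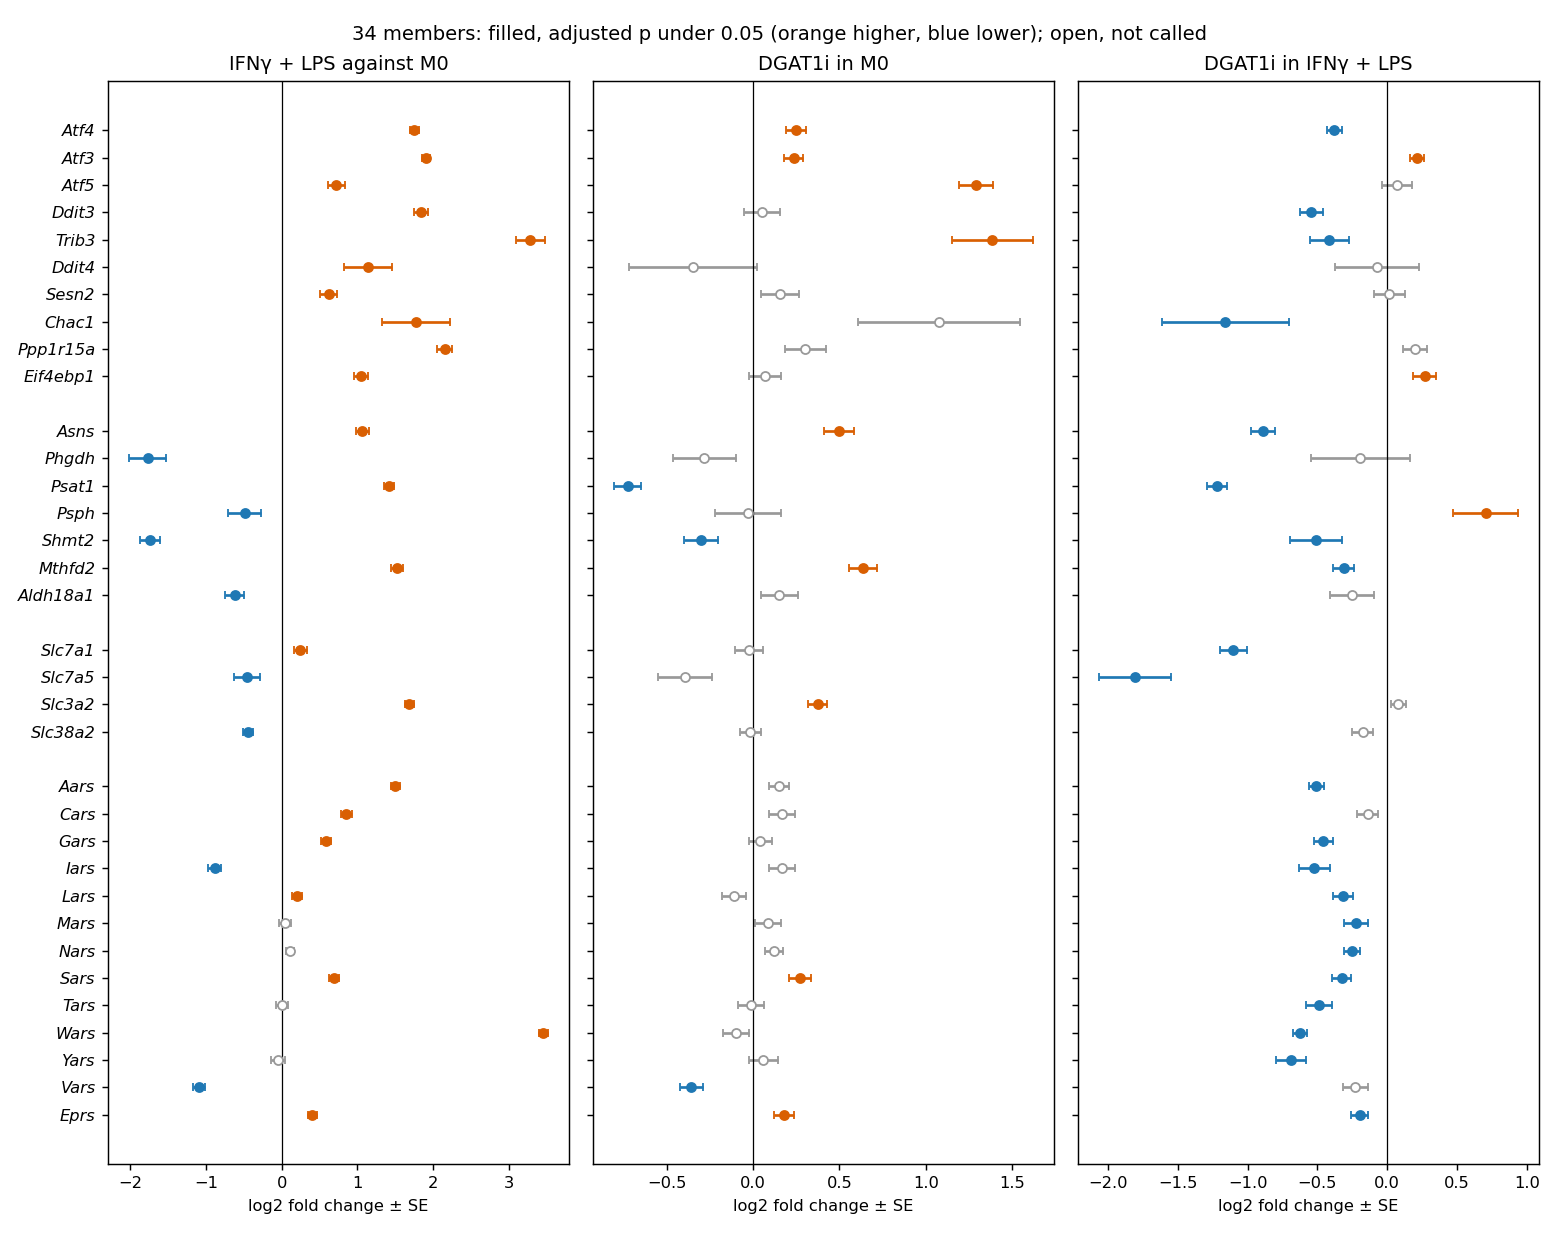
Log2 fold change with its SE (horizontal axis) of the 34 members tested, by role from stress factors at the top to synthetases at the bottom, for IFNγ + LPS against M0, DGAT1i in M0 and DGAT1i in IFNγ + LPS. Filled points passed an adjusted p of 0.05 (orange higher, blue lower), and 22, 9 and 3 of them are orange in the 3 panels while 8, 3 and 21 are blue.

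**Figure D3:**
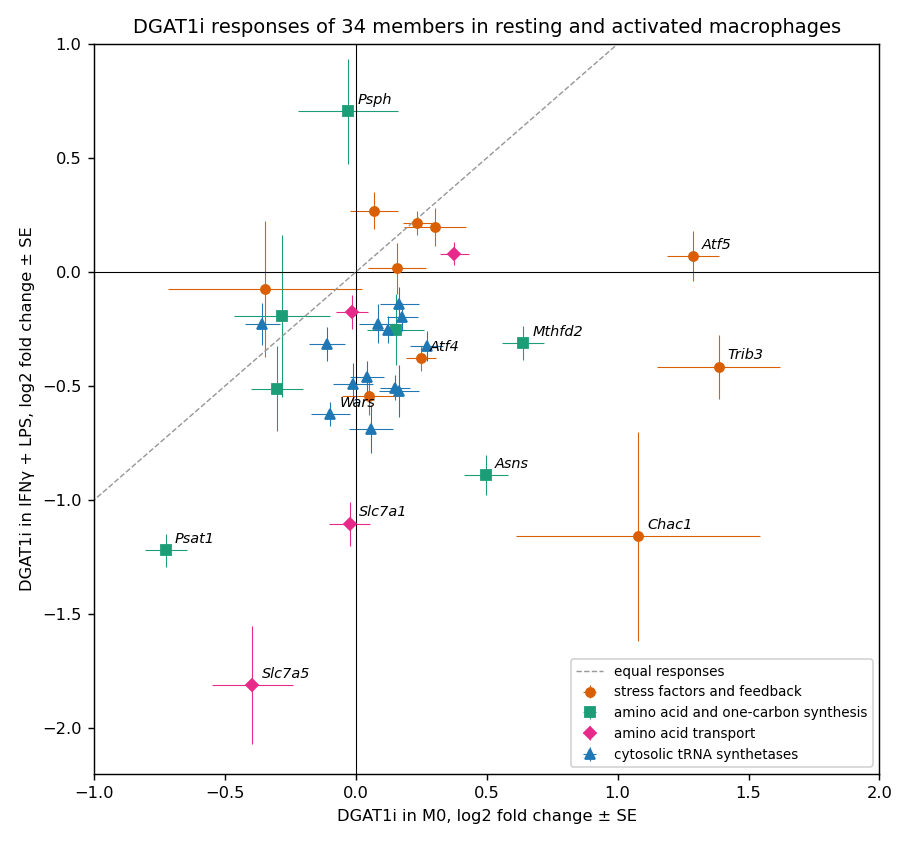
DGAT1i response in M0 (horizontal axis) and in IFNγ + LPS (vertical axis) of each of the 34 members, as log2 fold changes with SE on both axes and symbols by role. Points below the dashed line of equal responses had a more negative response in IFNγ + LPS cells, as Slc7a5, Chac1, Asns and Trib3 did.

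Among the stress factors and feedback genes, 10 of 10 rose and 0 fell with IFNγ + LPS, where 37.1% of all genes rose. With DGAT1i in M0 4 rose, beside 11.0% of all genes, and 0 fell (both counts of 0 also at an unadjusted p under 0.05 and with DESeq2). With DGAT1i in IFNγ + LPS 2 rose and 4 fell (60% called, beside 29.8% of all genes). Atf4 (ENSMUSG00000042406.7, chr15:80255184-80257541, plus strand, GRCm38) was at 116, 123 and 113 CPM in M0 and 133, 137 and 148 CPM in M0 + DGAT1i. Atf4 was at 400.3, 391 and 394 CPM in IFNγ + LPS and 299, 288 and 325 CPM in IFNγ + LPS + DGAT1i. The 4 groups held apart from each other without overlap, with the highest level in IFNγ + LPS. Atf4 mRNA was 3.37-fold higher in IFNγ + LPS than in M0 (log2 fold change 1.75 ± 0.06 SE, n = 3 a group, edgeR adjusted p = 1.8e-34). DGAT1i moved it up in M0 (0.25 ± 0.06, edgeR adjusted p = 7.4e-04) and down in IFNγ + LPS (-0.38 ± 0.05), and the difference of -0.63 ± 0.08 passed the test (edgeR adjusted p = 1.7e-08).

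Ddit3, which encodes the stress factor CHOP, a dimer partner of C/EBP proteins, was at 19.8, 23.8 and 20.1 CPM in M0 and 19.0, 23.1 and 24.0 CPM in M0 + DGAT1i. Ddit3 was at 77.9, 79.4 and 71.2 CPM in IFNγ + LPS and 50.6, 52.8 and 53.5 CPM in IFNγ + LPS + DGAT1i. It rose 3.58-fold with IFNγ + LPS, and all 3 DGAT1i-treated activated libraries lay below all 3 untreated ones while the resting groups overlapped. The log2 fold change with DGAT1i was 0.05 in M0 (edgeR adjusted p = 0.781) against -0.54 in IFNγ + LPS, a difference of -0.59 ± 0.14 (edgeR adjusted p = 9.1e-04). The 68 bases that exons of Ddit3 share with Mars on the opposite strand could not be assigned if the counting did not use strand. A second annotated entry named Ddit3 shares 105 exon bases with it on the same strand, where reads could be split.

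Trib3, a pseudokinase that binds ATF4 and restrains it, was at 1.60, 4.0 and 2.78 CPM in M0 and 5.58, 10.1 and 6.73 CPM in M0 + DGAT1i. Trib3 was at 25.7, 27.9 and 29.2 CPM in IFNγ + LPS and 20.0, 21.9 and 20.3 CPM in IFNγ + LPS + DGAT1i. Its level was lowest in M0, about 2.61 times as high with DGAT1i there, and higher still in both activated groups. It rose with IFNγ + LPS (3.28 ± 0.19) and with DGAT1i in M0 (1.39 ± 0.23, edgeR adjusted p = 6.8e-06), and fell with DGAT1i in IFNγ + LPS (-0.42 ± 0.14, edgeR adjusted p = 0.0207). That last call was lost without IFNγ + LPS replicate 2 or 3 or IFNγ + LPS + DGAT1i replicate 1 or 3 (log2 fold change -0.41 to -0.38, adjusted p 0.0609 to 0.0831) and with DESeq2 (adjusted p = 0.110). The difference between the states was -1.80 ± 0.27 (edgeR adjusted p = 2.0e-06).

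Atf5, a factor translated through upstream reading frames, as ATF4 is, and linked to mitochondrial stress, was at 18.6, 15.4 and 19.5 CPM in M0 and 46.1, 41.5 and 43.0 CPM in M0 + DGAT1i. Atf5 was at 28.2, 32.4 and 27.2 CPM in IFNγ + LPS and 30.5, 31.3 and 30.6 CPM in IFNγ + LPS + DGAT1i. Here the highest level was that of M0 + DGAT1i, above every library of the other groups. DGAT1i changed Atf5 by 1.29 ± 0.10 in M0 (edgeR adjusted p = 4.3e-16) and by 0.07 ± 0.11 in IFNγ + LPS (edgeR adjusted p = 0.680), with a difference of -1.22 ± 0.15. Exons of Atf5 share 82 bases with Nup62 and Il4i1 on the opposite strand.

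Chac1, which encodes an enzyme that breaks down glutathione, was near the floor, at 0.726, 0.666 and 0.696 CPM in M0 and 0.664, 1.70 and 2.11 CPM in M0 + DGAT1i. Chac1 was at 2.95, 2.70 and 1.69 CPM in IFNγ + LPS and 0.823, 1.04 and 1.40 CPM in IFNγ + LPS + DGAT1i. These values stand for 4 to 16 reads a library, and the activated libraries lay above M0 (log2 fold change 1.78) and above the DGAT1i-treated activated ones. The fall with DGAT1i in IFNγ + LPS (-1.16 ± 0.46, edgeR adjusted p = 0.0484) did not hold with DESeq2 (adjusted p = 0.168) or with the replicate number as a block (adjusted p = 0.0543). It was also lost without M0 replicate 1, 2 or 3 or IFNγ + LPS replicate 1 or 2 or M0 + DGAT1i replicate 2 or IFNγ + LPS + DGAT1i replicate 1, 2 or 3 (log2 fold change -1.37 to -0.99, adjusted p 0.0527 to 0.156). In M0 the groups overlapped and the response to DGAT1i was 1.08 ± 0.47 (edgeR adjusted p = 0.0871), a value that passed without M0 + DGAT1i replicate 1. The difference between the states (-2.24 ± 0.65) was lost without M0 + DGAT1i replicate 3 (log2 fold change -1.89, adjusted p = 0.0624), and DESeq2 gave no adjusted p for it.

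Atf3, a stress factor of the same family that is also induced by Toll-like receptors, did not follow Atf4 down: it was at 216, 183 and 198 CPM in M0 and 228, 231 and 243 CPM in M0 + DGAT1i. Atf3 was at 739, 729.8 and 768 CPM in IFNγ + LPS and 877, 866 and 856 CPM in IFNγ + LPS + DGAT1i. It rose 3.75-fold with IFNγ + LPS and rose with DGAT1i in both M0 (0.24 ± 0.06) and IFNγ + LPS (0.22 ± 0.05, edgeR adjusted p = 8.9e-04). The difference between the states was -0.02 ± 0.08 (edgeR adjusted p = 0.897), with an opposite sign when scaled by library size alone (0.03) and without M0 replicate 2 or M0 + DGAT1i replicate 3 (up to 0.04). Levels per kilobase of exon use the merged length of all annotated exons. By this measure Atf3 was the highest of the 10 in each group, at 92.3 CPM per kb in M0 and 346 in IFNγ + LPS. Atf4 came next at 49.7 and 168.

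Ppp1r15a, which brings a phosphatase to eIF2 and so ends the stress signal, was at 15.4, 13.2 and 15.0 CPM in M0 and 17.5, 17.5 and 18.7 CPM in M0 + DGAT1i. Ppp1r15a was at 63.6, 67.7 and 62.4 CPM in IFNγ + LPS and 65.3, 73.8 and 84.1 CPM in IFNγ + LPS + DGAT1i. Eif4ebp1, an inhibitor of cap-dependent translation, was at 29.3, 36.1 and 28.7 CPM in M0 and 32.7, 35.1 and 31.3 CPM in M0 + DGAT1i. Eif4ebp1 was at 66.1, 61.0 and 67.8 CPM in IFNγ + LPS and 82.8, 74.1 and 77.8 CPM in IFNγ + LPS + DGAT1i. Both rose with IFNγ + LPS, 4.45-fold and 2.06-fold, and neither was lower with DGAT1i. With DGAT1i in IFNγ + LPS the log2 fold change was 0.20 ± 0.08 for Ppp1r15a (edgeR adjusted p = 0.0646) and 0.27 ± 0.08 for Eif4ebp1 (edgeR adjusted p = 0.00840). The Ppp1r15a value passed with only the 6 libraries compared and without IFNγ + LPS + DGAT1i replicate 1. In M0 its 3 DGAT1i-treated libraries lay above the untreated ones (0.30 ± 0.12, edgeR adjusted p = 0.0547), and that value passed without IFNγ + LPS + DGAT1i replicate 1 or 3. The Eif4ebp1 call was lost without IFNγ + LPS replicate 2 or IFNγ + LPS + DGAT1i replicate 1 (log2 fold change 0.22 in each, adjusted p 0.0560 to 0.0688) and with DESeq2 (adjusted p = 0.0531).

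Ddit4, an inhibitor of mTORC1, was at 1.74, 1.60 and 1.67 CPM in M0 and 1.20, 1.28 and 1.45 CPM in M0 + DGAT1i. Ddit4 was at 3.16, 3.24 and 4.68 CPM in IFNγ + LPS and 2.88, 3.34 and 4.44 CPM in IFNγ + LPS + DGAT1i. These values stand for 9 to 25 reads a library. Its increase with IFNγ + LPS (1.14 ± 0.32, edgeR adjusted p = 0.00123) was the only one of its changes to pass. Sesn2, a leucine sensor that also restrains mTORC1, rose from 22.5 ± 2.14 to 34.7 ± 2.79 CPM (mean ± SD, n = 3) with IFNγ + LPS. That call was lost when scaled by library size alone (log2 fold change 0.15). Sesn2 stood at 25.2 ± 3.42 and 35.3 ± 5.20 CPM in the DGAT1i groups.

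**Figure D4:**
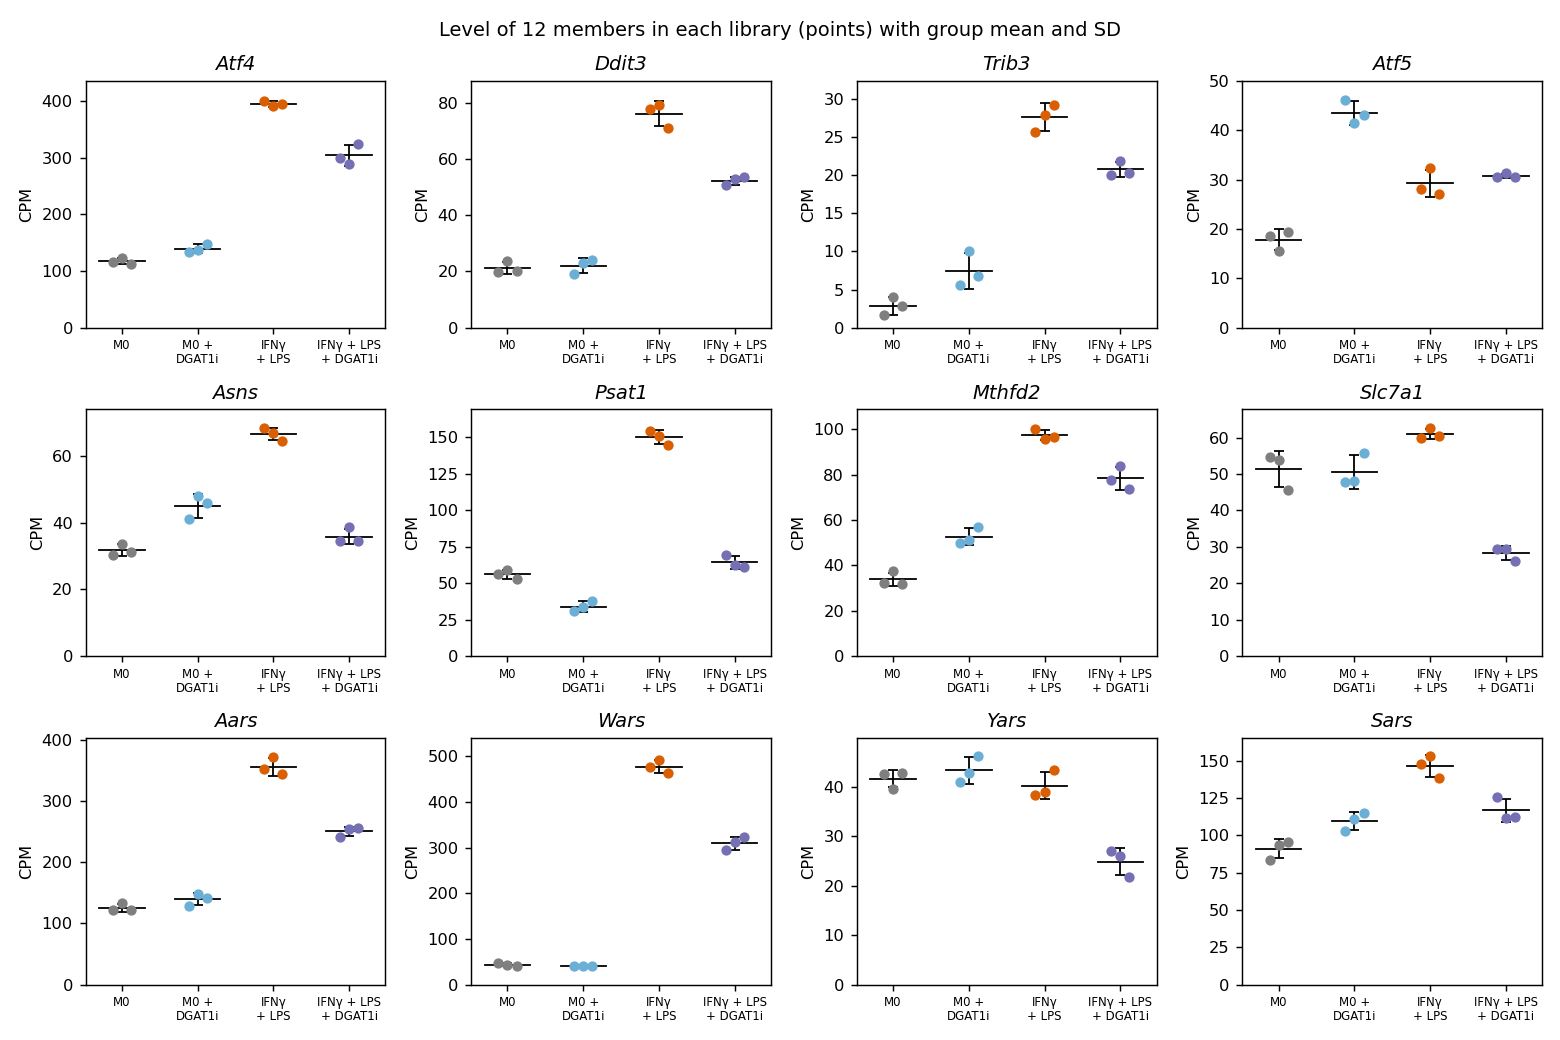
Level in CPM (vertical axes, each from 0) of 12 members in each of the 12 libraries, with the mean as a bar and the SD as an error bar over the 3 libraries of a group. Atf4 reached 395 CPM in IFNγ + LPS and 304 with DGAT1i, Yars stayed near 40 CPM in 3 groups and fell to 24.9 with DGAT1i in IFNγ + LPS, and Atf5 peaked in M0 + DGAT1i at 43.5.

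In amino acid and one-carbon synthesis all 7 genes tested were called with activation, beside 73.3% of all genes: Asns, Psat1 and Mthfd2 rose and Phgdh, Psph, Shmt2 and Aldh18a1 fell with IFNγ + LPS. With DGAT1i in IFNγ + LPS, 4 fell and 1 rose (71.4% called, beside 29.8% of all genes), and in M0 2 rose and 2 fell (57.1% called, beside 24.4%). Asns (ENSMUSG00000029752.12, chr6:7675169-7693254, minus strand), asparagine synthetase and a classic ATF4 target, was at 30.4, 33.7 and 31.3 CPM in M0 and 41.0, 48.1 and 45.8 CPM in M0 + DGAT1i. Asns was at 68.2, 67.0 and 64.4 CPM in IFNγ + LPS and 34.4, 38.6 and 34.6 CPM in IFNγ + LPS + DGAT1i. The DGAT1i-treated activated libraries, at 34.4 to 38.6 CPM, lay below all untreated activated ones and close above the M0 range. Its log2 fold change was 1.06 ± 0.08 with IFNγ + LPS and 0.50 ± 0.08 with DGAT1i in M0 (edgeR adjusted p = 4.7e-06). It was -0.89 ± 0.09 with DGAT1i in IFNγ + LPS (edgeR adjusted p = 5.0e-12). The difference was -1.39 ± 0.12 (edgeR adjusted p = 4.7e-13).

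Psat1, which carries out the transamination step of serine synthesis, was at 56.4, 58.9 and 53.0 CPM in M0 and 30.7, 33.4 and 37.7 CPM in M0 + DGAT1i. Psat1 was at 154, 151 and 145 CPM in IFNγ + LPS and 69.4, 62.2 and 61.2 CPM in IFNγ + LPS + DGAT1i. It was lower with DGAT1i in both states, without overlap, by 1.65-fold in M0 (-0.72 ± 0.08) and 2.33-fold in IFNγ + LPS (-1.22 ± 0.07, edgeR adjusted p = 2.3e-20). The fall was larger in IFNγ + LPS, with a difference of -0.50 ± 0.11 (edgeR adjusted p = 5.2e-04).

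Mthfd2, the mitochondrial folate dehydrogenase, was at 32.1, 37.3 and 31.9 CPM in M0 and 49.8, 51.1 and 57.0 CPM in M0 + DGAT1i. Mthfd2 was at 100.0, 95.6 and 96.5 CPM in IFNγ + LPS and 77.4, 83.9 and 73.5 CPM in IFNγ + LPS + DGAT1i. DGAT1i raised it in M0 (0.64 ± 0.08, edgeR adjusted p = 5.8e-09) and lowered it in IFNγ + LPS (-0.31 ± 0.07, edgeR adjusted p = 7.4e-04). Shmt2, the serine hydroxymethyltransferase that acts before it in mitochondria, went the other way with activation and was at 40.7, 42.6 and 36.8 CPM in M0 and 29.5, 29.1 and 38.7 CPM in M0 + DGAT1i. Shmt2 was at 13.7, 11.7 and 10.7 CPM in IFNγ + LPS and 8.44, 9.80 and 6.77 CPM in IFNγ + LPS + DGAT1i. Shmt2 thus fell 3.34-fold with IFNγ + LPS while Mthfd2 rose 2.88-fold, and the further falls of Shmt2 with DGAT1i were -0.30 ± 0.10 in M0 and -0.51 ± 0.18 in IFNγ + LPS. In M0 the call was lost without M0 replicate 1 or 2 or M0 + DGAT1i replicate 1 or 2 (log2 fold change -0.29 to -0.23, adjusted p 0.0615 to 0.139). The Shmt2 call in IFNγ + LPS was lost without IFNγ + LPS replicate 1 or 2 or IFNγ + LPS + DGAT1i replicate 1 or 3 (log2 fold change -0.53 to -0.40, adjusted p 0.0558 to 0.152). Both were lost with DESeq2 (adjusted p = 0.121 and 0.0604).

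Phgdh, the first enzyme of serine synthesis, was low and was at 8.86, 8.52 and 9.61 CPM in M0 and 7.70, 6.10 and 8.31 CPM in M0 + DGAT1i. Phgdh was at 3.37, 2.16 and 2.44 CPM in IFNγ + LPS and 1.85, 3.55 and 1.40 CPM in IFNγ + LPS + DGAT1i. It fell 3.41-fold with IFNγ + LPS (-1.77 ± 0.25, edgeR adjusted p = 6.0e-09), and the DGAT1i-treated activated libraries overlapped the untreated ones. Several processed pseudogenes hold about 84% of its longest transcript at 95% identity or more and had 0 to 2 reads where they were in the table, so reads could be split between them. Psph, which completes serine synthesis, was at 7.45 ± 1.21, 7.29 ± 1.09, 5.37 ± 1.80 and 8.63 ± 1.43 CPM (mean ± SD) in M0, M0 + DGAT1i, IFNγ + LPS and IFNγ + LPS + DGAT1i. Its fall with IFNγ + LPS (-0.49) was lost without M0 replicate 2 or 3 or IFNγ + LPS replicate 2 or 3 (log2 fold change -0.51 to -0.26, adjusted p 0.0543 to 0.332) and with DESeq2 (adjusted p = 0.126). Its rise with DGAT1i in IFNγ + LPS (0.70) was lost without IFNγ + LPS replicate 3 or IFNγ + LPS + DGAT1i replicate 1 (log2 fold change 0.47 to 0.57, adjusted p 0.0968 to 0.154) and with DESeq2 (adjusted p = 0.0694). Of its exon bases, 452 lie opposite the abundant Cct6a.

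Aldh18a1, which starts proline synthesis from glutamate, fell from 24.4 ± 1.59 to 15.8 ± 2.39 CPM with IFNγ + LPS (log2 fold change -0.62, edgeR adjusted p = 2.1e-05) and did not pass with DGAT1i in either state (0.15 and -0.25). Its partner Pycr1 had 5 reads in M0 and 1 in IFNγ + LPS, a ratio of 3.63 with a 95% counting interval of 0.41 to 171. Summed over the 8 genes, synthesis transcripts held 203 ± 10.4 CPM (SD) in M0, 206 ± 18.7 in M0 + DGAT1i, 349.7 ± 10.0 in IFNγ + LPS and 211 ± 11.8 in IFNγ + LPS + DGAT1i.

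Of the 4 amino acid transport genes, 2 rose and 2 fell with IFNγ + LPS, where 37.1% of all genes rose and 36.2% fell. DGAT1i in IFNγ + LPS lowered 2, beside 16.3% of all genes, and raised 0 (0 also at an unadjusted p under 0.05 and with DESeq2). With DGAT1i in M0 1 rose, beside 11.0% of all genes, and 0 fell (1, Slc7a5, at an unadjusted p under 0.05, 0 with DESeq2, and 1, Slc7a5, with RLE or library-size scaling). Slc7a1, a carrier of arginine and lysine, was at 54.8, 53.8 and 45.7 CPM in M0 and 47.7, 48.1 and 55.8 CPM in M0 + DGAT1i. Slc7a1 was at 59.8, 62.6 and 60.5 CPM in IFNγ + LPS and 29.4, 29.4 and 26.2 CPM in IFNγ + LPS + DGAT1i. The DGAT1i-treated activated libraries lay below every other library, and the resting groups overlapped. DGAT1i lowered Slc7a1 2.15-fold in IFNγ + LPS (-1.10 ± 0.10, edgeR adjusted p = 6.9e-14) and left it at -0.02 ± 0.08 in M0, a difference of -1.08 ± 0.13 (edgeR adjusted p = 1.9e-09). Its small rise with IFNγ + LPS (0.25) turned to -0.22 when scaled by library size alone and was lost without M0 replicate 3 (log2 fold change 0.17, adjusted p = 0.0736) and with DESeq2 (adjusted p = 0.0708).

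Slc7a5, the light chain of a carrier of leucine and other large neutral amino acids, was at 12.5, 15.2 and 11.8 CPM in M0 and 8.37, 11.9 and 9.90 CPM in M0 + DGAT1i. Slc7a5 was at 11.8, 8.82 and 8.43 CPM in IFNγ + LPS and 3.50, 2.71 and 1.87 CPM in IFNγ + LPS + DGAT1i. In IFNγ + LPS + DGAT1i it rested on 8 to 17 reads a library, beside 45 to 56 in IFNγ + LPS. That was the largest fall with DGAT1i in IFNγ + LPS among the 34 members, 3.51-fold (-1.81 ± 0.26, edgeR adjusted p = 9.9e-08), with a difference between the states of -1.42 ± 0.31 (edgeR adjusted p = 4.9e-04). In M0 its response to DGAT1i was -0.39 ± 0.16 (edgeR adjusted p = 0.0571). That value passed with RLE or library-size scaling, with only the 6 libraries compared, and without M0 replicate 3, M0 + DGAT1i replicate 2 or IFNγ + LPS + DGAT1i replicate 1. The lower level of Slc7a5 in IFNγ + LPS than in M0 (-0.46) was lost without M0 replicate 2 or IFNγ + LPS replicate 2 or 3 (log2 fold change -0.39 to -0.34, adjusted p 0.0706 to 0.105) and with DESeq2 (adjusted p = 0.0778).

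Slc3a2, the heavy chain that Slc7a5 and the cystine carrier Slc7a11 share, was at 199, 198 and 193 CPM in M0 and 242, 264 and 260.2 CPM in M0 + DGAT1i. Slc3a2 was at 603, 679.9 and 617 CPM in IFNγ + LPS and 646, 675 and 690.4 CPM in IFNγ + LPS + DGAT1i. It rose 3.22-fold with IFNγ + LPS and with DGAT1i in M0 (0.38 ± 0.05, edgeR adjusted p = 1.7e-07), whereas with DGAT1i in IFNγ + LPS the groups overlapped (0.08 ± 0.05, edgeR adjusted p = 0.255). Slc38a2, a sodium-coupled carrier of small neutral amino acids, fell from 106 ± 3.31 to 77.8 ± 2.17 CPM with IFNγ + LPS and stood at 105 ± 2.58 and 69.1 ± 6.15 CPM with DGAT1i. Its response in IFNγ + LPS (-0.18 ± 0.07, edgeR adjusted p = 0.0629) passed without a filter on low counts and without IFNγ + LPS + DGAT1i replicate 3.

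The 13 cytosolic tRNA synthetases among the members, which join amino acids to their tRNAs, are not the whole class. They were mostly lower with the inhibitor in activated cells: 11 fell with DGAT1i in IFNγ + LPS by edgeR and 10 by DESeq2. The share called by edgeR was 84.6%, beside 29.8% of all genes. Those that rose numbered 0 by edgeR, by DESeq2 and at an unadjusted p under 0.05. The log2 fold changes of the 13 lay between -0.69 (Yars) and -0.14 (Cars), with a median of -0.33. In M0 cells DGAT1i raised Sars and Eprs and lowered Vars (23.1% called, beside 24.4% of all genes), with a median of 0.09. Between the states the response differed for 11 of 13 (84.6%, beside 18.5% of all genes), all more negative in IFNγ + LPS. The exceptions were Lars (-0.21 ± 0.10, edgeR adjusted p = 0.158) and Vars (0.13 ± 0.11, edgeR adjusted p = 0.485). Together the 13 took 1096 ± 33.2 CPM (SD, n = 3) in M0, 1153 ± 46.9 in M0 + DGAT1i, 1891 ± 49.4 in IFNγ + LPS and 1418 ± 11.8 in IFNγ + LPS + DGAT1i.

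With activation, 7 of the 13 synthetases were higher and 2 lower in IFNγ + LPS (69.2% called, beside 73.3% of all genes). Wars (ENSMUSG00000021266.16, chr12:108860030-108894174, minus strand), tryptophanyl-tRNA synthetase and an interferon target, was at 47.4, 42.7 and 40.5 CPM in M0 and 40.1, 40.2 and 41.7 CPM in M0 + DGAT1i. Wars was at 476, 492 and 464 CPM in IFNγ + LPS and 295, 312 and 323 CPM in IFNγ + LPS + DGAT1i. It rose 11.0-fold with IFNγ + LPS (3.45 ± 0.06, edgeR adjusted p = 5.6e-47), and all DGAT1i-treated activated libraries lay below the untreated ones. DGAT1i changed it by -0.62 ± 0.05 in IFNγ + LPS (edgeR adjusted p = 1.9e-14) and by -0.10 ± 0.07 in M0 (edgeR adjusted p = 0.381). Beside this, the 4 marker genes of the IFNγ + LPS response summed to 17278 to 18806 CPM in IFNγ + LPS and to 15295 to 15923 CPM with DGAT1i. Of the 4, DGAT1i lowered 3 and raised 1 in IFNγ + LPS, and the part of this in the Wars result was not tested.

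Aars, alanyl-tRNA synthetase, was at 122, 133 and 122 CPM in M0 and 128, 148 and 142 CPM in M0 + DGAT1i. Aars was at 351, 371 and 343 CPM in IFNγ + LPS and 241, 253 and 256 CPM in IFNγ + LPS + DGAT1i. It rose 2.83-fold with IFNγ + LPS, fell with DGAT1i there (-0.51 ± 0.06, edgeR adjusted p = 8.5e-11) and was at 0.15 ± 0.06 with DGAT1i in M0 (edgeR adjusted p = 0.0535). The M0 value passed with the replicate block, with only the 6 libraries compared, and without M0 replicate 2, M0 + DGAT1i replicate 1 or IFNγ + LPS + DGAT1i replicate 1. Exosc6 shares 1326 exon bases with Aars on the same strand, so reads there could be split. Vars, valyl-tRNA synthetase, was at 104, 104 and 101 CPM in M0 and 80.4, 76.8 and 83.9 CPM in M0 + DGAT1i. Vars was at 53.9, 45.0 and 46.6 CPM in IFNγ + LPS and 45.5, 42.6 and 35.3 CPM in IFNγ + LPS + DGAT1i. It fell 2.13-fold with IFNγ + LPS and was the only one of the 13 called lower with DGAT1i in M0 (-0.36 ± 0.07, edgeR adjusted p = 3.2e-05). With DGAT1i in IFNγ + LPS Vars was at -0.23 ± 0.09 (edgeR adjusted p = 0.0524). That value passed under RLE or library-size scaling, with the other filters on low counts, with the replicate block, and without IFNγ + LPS replicate 2, M0 + DGAT1i replicate 3 or IFNγ + LPS + DGAT1i replicate 1.

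Iars, isoleucyl-tRNA synthetase, was the other of the 13 synthetases to fall with IFNγ + LPS, from 57.4 ± 3.79 to 31.2 ± 2.71 CPM (-0.89), and fell again to 21.6 ± 2.25 CPM with DGAT1i (edgeR adjusted p = 2.4e-04). Yars and Tars, for tyrosine and threonine, did not pass the test with IFNγ + LPS (-0.05 and 0.00), although both were called lower when scaled by library size alone (-0.52 and -0.47). With DGAT1i in that state both fell, Yars from 40.3 ± 2.78 to 24.9 ± 2.81 CPM and Tars from 56.5 ± 0.154 to 40.2 ± 0.682 CPM. In M0 their DGAT1i responses were 0.06 and -0.01, and both differences passed (edgeR adjusted p = 3.0e-05 and 0.00230). Gars and Sars, for glycine and serine, rose with IFNγ + LPS (0.59 and 0.69) and fell with DGAT1i there (-0.46 and -0.33). The rise of Gars was lost when scaled by library size alone (0.12).

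Cars, for cysteine, rose with IFNγ + LPS from 51.5 ± 4.11 to 93.1 ± 6.77 CPM and did not pass with DGAT1i there (-0.14 ± 0.07, edgeR adjusted p = 0.151). Its difference between the states (-0.31) was lost without M0 replicate 3 or IFNγ + LPS replicate 1 or 2 or M0 + DGAT1i replicate 3 or IFNγ + LPS + DGAT1i replicate 1 or 2 (log2 fold change -0.30 to -0.25, adjusted p 0.0577 to 0.113). It was also lost with library-size scaling and with DESeq2 (adjusted p = 0.141). Nars, Lars, Mars and Eprs, for asparagine, leucine, methionine and glutamate with proline, had log2 fold changes of 0.11, 0.20, 0.05 and 0.40 with IFNγ + LPS, all of which turned negative when scaled by library size alone, as that of Tars did. Of these Lars and Eprs passed, and the Lars call was lost without M0 replicate 1 or IFNγ + LPS replicate 3 (log2 fold change 0.16 in each, adjusted p 0.0630 to 0.0644) and with DESeq2 (adjusted p = 0.0731).

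With DGAT1i in IFNγ + LPS these 4 fell by 0.25, 0.32, 0.23 and 0.20 on the log2 scale. The Mars call was lost without IFNγ + LPS replicate 1 or 3 or IFNγ + LPS + DGAT1i replicate 2 or 3 (log2 fold change -0.24 to -0.19, adjusted p 0.0632 to 0.131) and with DESeq2 (adjusted p = 0.109). The Eprs call was lost without IFNγ + LPS replicate 2 or IFNγ + LPS + DGAT1i replicate 3 (log2 fold change -0.15 to -0.14, adjusted p 0.106 to 0.111). The rise of Eprs with DGAT1i in M0 (0.18) was lost without M0 replicate 1 or 3 or M0 + DGAT1i replicate 2 or 3 (log2 fold change 0.13 to 0.17, adjusted p 0.0544 to 0.178), with library-size scaling and with DESeq2 (adjusted p = 0.124). The difference for Mars (-0.31) was lost without M0 replicate 1 or 2 or IFNγ + LPS replicate 1 or 3 or M0 + DGAT1i replicate 2 or 3 or IFNγ + LPS + DGAT1i replicate 2 or 3 (log2 fold change -0.33 to -0.28, adjusted p 0.0593 to 0.112). It was also lost under 5 other settings, among them DESeq2 (adjusted p = 0.175) and the replicate block (adjusted p = 0.0502).

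Per kilobase of merged annotated exon, Nars had the highest value of the 13 synthetases in M0, at 38.9 ± 1.30 CPM per kb (SD, n = 3). Gars came next at 26.5 ± 1.48, and Yars had the lowest, at 7.01 ± 0.289. The merged length, 18102 bases for Eprs and 3119 for Gars, need not be that of the transcripts expressed. The order therefore depends on the annotation and is not a measured order of abundance. Wars stood eighth in M0 at 12.6 ± 1.01 CPM per kb, where it overlapped its neighbour Aars. In IFNγ + LPS it was the highest at 138 ± 4.02, above Nars at 41.9 ± 0.115 without overlap, and it kept that place with DGAT1i at 89.9 ± 4.11 above Nars at 35.2 ± 0.910. Of the 12 pairs of neighbours in the order, the ranges of 8 overlapped in M0, 6 in M0 + DGAT1i, 4 in IFNγ + LPS and 5 in IFNγ + LPS + DGAT1i.

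The other synthetase genes were read beside the members from lists of names. Of 10 further cytosolic synthetases and subunits of the multisynthetase complex, 4 fell and 0 rose with DGAT1i in IFNγ + LPS (0 also at an unadjusted p under 0.05 and with DESeq2), with a median of -0.15, so that 40% were called beside 29.8% of all genes. The 4 were Eef1e1, a scaffold subunit (-0.54 ± 0.15), Hars, for histidine (-0.27 ± 0.08), Kars, for lysine (-0.18 ± 0.07), and Rars, for arginine (-0.16 ± 0.06). Each call was lost with a library left out. That of Eef1e1 was lost without IFNγ + LPS + DGAT1i replicate 2 (log2 fold change -0.37, adjusted p = 0.0897). The Hars call was lost without IFNγ + LPS replicate 3 or IFNγ + LPS + DGAT1i replicate 2 (log2 fold change -0.22 in each, adjusted p 0.0818 to 0.0835). Kars lost its call without IFNγ + LPS replicate 2 or 3 or IFNγ + LPS + DGAT1i replicate 2 (log2 fold change -0.18 to -0.12, adjusted p 0.0616 to 0.253), and Rars without IFNγ + LPS replicate 2 or IFNγ + LPS + DGAT1i replicate 3 (log2 fold change -0.15 to -0.12, adjusted p 0.103 to 0.160). Both were also lost with DESeq2 (adjusted p = 0.0893 and 0.0624) and with only the 6 libraries compared (adjusted p = 0.0702 and 0.0752). In IFNγ + LPS against M0 this list had 3 higher and 4 lower (70% called, beside 73.3% of all genes), led by Aimp2 (-0.92), Dars (-0.91) and Rars (0.79). In M0, DGAT1i raised Farsb (0.25) and Dars (0.22) (20% called, beside 24.4% of all genes), both of which were lost with DESeq2 (adjusted p = 0.0576 and 0.0651), and Dars also without M0 replicate 2 (log2 fold change 0.17, adjusted p = 0.0735). The difference between the states passed for 4 of the 10 (40%, beside 18.5% of all genes), Eef1e1 (-0.73), Dars (-0.37), Farsb (-0.32) and Rars (-0.31). The Dars difference was lost without IFNγ + LPS replicate 2 (log2 fold change -0.30, adjusted p = 0.0605) and with DESeq2 (adjusted p = 0.0509), and that of Farsb in 10 of the 12 sets with 1 library left out (log2 fold change -0.34 to -0.26).

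Among the 17 mitochondrial synthetases, which charge tRNAs inside mitochondria, 1 fell with DGAT1i in IFNγ + LPS, Cars2 (-0.56 ± 0.18), and 0 rose by edgeR and DESeq2 (1, Iars2, at an unadjusted p under 0.05), with a median of -0.02, so that 5.88% were called beside 29.8% of all genes. The Cars2 call was lost without IFNγ + LPS replicate 2 or IFNγ + LPS + DGAT1i replicate 1 (log2 fold change -0.50 to -0.47, adjusted p 0.0612 to 0.0691) and with DESeq2 (adjusted p = 0.0508). With IFNγ + LPS, 1 of the 17 rose and 8 fell (52.9% called, beside 73.3% of all genes), including Nars2 (-1.07) and Tars2 (-0.75), and scaling by library size alone raised the number called from 9 to 14. In M0, DGAT1i raised Fars2 (0.38) and Iars2 (0.20), or 11.8% beside 24.4% of all genes called. Fars2 was lost without M0 replicate 1 or 3 or M0 + DGAT1i replicate 1 or 2 (log2 fold change 0.26 to 0.40, adjusted p 0.0504 to 0.261). Iars2 was lost without M0 replicate 2 or 3 or M0 + DGAT1i replicate 1 or 2 (log2 fold change 0.18 to 0.21, adjusted p 0.0547 to 0.105). Neither held with DESeq2 (adjusted p = 0.183 and 0.145). The difference between the states passed for 0 of 17 by edgeR and DESeq2, and 2 were more negative at an unadjusted p under 0.05.

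**Figure D5:**
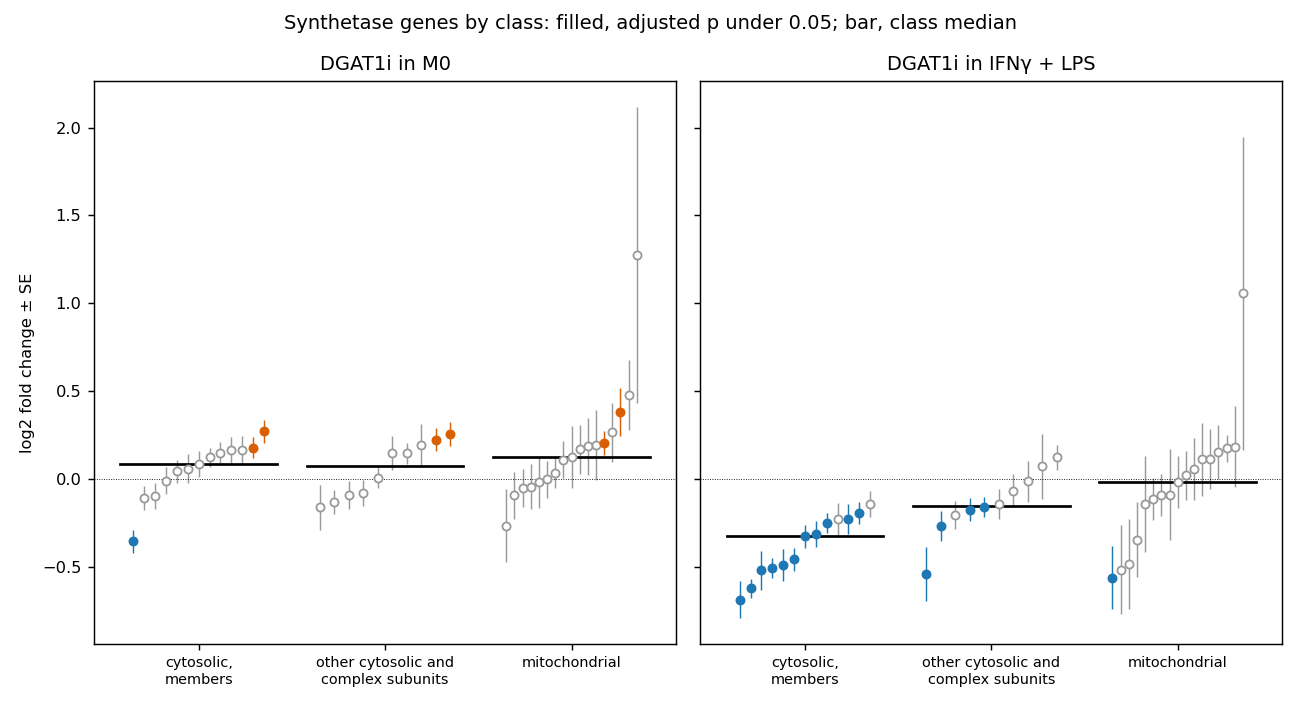
Log2 fold change with SE (vertical axis) of DGAT1i responses, M0 left and IFNγ + LPS right, for the 13 cytosolic members, 10 other cytosolic synthetases and complex subunits and 17 mitochondrial synthetases, with filled points for an adjusted p under 0.05 and a bar at the class median. In IFNγ + LPS all 13 members lie below 0, with 11 filled, while the mitochondrial class has a median of -0.02, and the highest point in both panels is Lars2, which did not pass.

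Of 15 genes upstream of ATF4, the kinases that phosphorylate eIF2, the eIF2 and eIF2B subunits and their regulators, 8 rose and 4 fell with IFNγ + LPS (80% called, beside 73.3% of all genes). Ppp1r15b, the constitutive partner of the eIF2 phosphatase, rose to 420.2 ± 19.3 CPM from 112 ± 5.08 (1.91 ± 0.06). Eif2ak2, the interferon-induced kinase that senses double-stranded RNA, rose to 259.8 ± 5.78 CPM from 76.1 ± 6.73 (1.77 ± 0.06). Impact, an inhibitor of the amino acid sensing kinase, rose to 171 ± 6.25 CPM from 69.0 ± 5.85 (1.30 ± 0.06). DGAT1i in IFNγ + LPS raised 2 and lowered 2 of the 15 (26.7% called, beside 29.8% of all genes). Eif2ak4, that amino acid sensing kinase (0.46 ± 0.10), and Eif2ak3, the kinase of the endoplasmic reticulum (0.45 ± 0.13), rose. Eif2s1, the subunit that is phosphorylated, fell (-0.30 ± 0.07, edgeR adjusted p = 6.8e-04), as did Gcn1, an activator of the amino acid sensing kinase (-0.19 ± 0.07). The Gcn1 call was lost without IFNγ + LPS replicate 1 or IFNγ + LPS + DGAT1i replicate 2 or 3 (log2 fold change -0.19 to -0.13, adjusted p 0.0783 to 0.242) and with DESeq2 (adjusted p = 0.0976). The Eif2ak3 call was lost without IFNγ + LPS replicate 1 or IFNγ + LPS + DGAT1i replicate 1 (log2 fold change 0.35 in each, adjusted p 0.0642 to 0.0800).

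In M0, DGAT1i raised Impact (0.35 ± 0.06, edgeR adjusted p = 2.9e-05) and Eif2s2 (0.20) and lowered Eif2s1 (-0.17) and Eif2ak2 (-0.21), which makes 26.7% called beside 24.4% of all genes. Eif2s2 was lost without M0 replicate 2 or 3 or M0 + DGAT1i replicate 1 or 2 (log2 fold change 0.15 to 0.19, adjusted p 0.0544 to 0.148). Eif2s1 was lost without M0 replicate 2 or 3 or M0 + DGAT1i replicate 1 or 3 (log2 fold change -0.18 to -0.15, adjusted p 0.0753 to 0.143). Eif2ak2 was lost without M0 replicate 2 or 3 or M0 + DGAT1i replicate 3 (log2 fold change -0.19 to -0.16, adjusted p 0.0540 to 0.110). With DESeq2 Eif2s2 and Eif2s1 were lost (adjusted p = 0.118 and 0.0651). The DGAT1i response differed between the states for Eif2ak3 (0.66 ± 0.16, edgeR adjusted p = 0.00203), Eif2s2 (-0.37 ± 0.09) and Impact (-0.24 ± 0.09), or 20% beside 18.5% of all genes. The Impact difference was lost in 7 of the 12 sets with 1 library left out (log2 fold change -0.26 to -0.18) and with DESeq2 (adjusted p = 0.136).

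Other genes known as ATF4 targets gave calls in both directions. Of 22 listed, 16 were tested, and with DGAT1i in IFNγ + LPS 5 rose and 3 fell (50% called, beside 29.8% of all genes), with a median of 0.16. Mthfd1l, a further folate enzyme of mitochondria, rose (0.70 ± 0.12, edgeR adjusted p = 5.1e-06), as did Ero1l, an oxidase of the endoplasmic reticulum (0.54 ± 0.06), and Slc7a11, the cystine carrier (0.58 ± 0.13). Slc6a9, a glycine carrier, rose on 12 to 14 reads a library in IFNγ + LPS and 21 to 31 with DGAT1i (1.23 ± 0.30, edgeR adjusted p = 8.8e-04). Pck2, the mitochondrial phosphoenolpyruvate carboxykinase, rose (0.49 ± 0.15), a call that was lost without IFNγ + LPS replicate 3 or IFNγ + LPS + DGAT1i replicate 1 (log2 fold change 0.40 to 0.41, adjusted p 0.0572 to 0.0614). The 3 that fell were Slc1a4, a carrier of alanine, serine and cysteine, Herpud1, a protein of endoplasmic reticulum degradation, and Jdp2, a repressor of the ATF family. Slc1a4 fell from 13 to 20 reads a library to 2 to 7 (-1.56 ± 0.42, edgeR adjusted p = 0.00349). Jdp2 fell by 0.32 ± 0.06 on the log2 scale (edgeR adjusted p = 3.4e-05). The Herpud1 call (-0.41 ± 0.15) was lost without IFNγ + LPS replicate 1 or 2 or IFNγ + LPS + DGAT1i replicate 1 or 2 (log2 fold change -0.43 to -0.37, adjusted p 0.0532 to 0.110) and with DESeq2 (adjusted p = 0.0810). Slc7a11 was at 2.91, 1.86 and 3.06 CPM in M0, 9.96, 8.94 and 8.45 in M0 + DGAT1i, 152, 105 and 135 in IFNγ + LPS and 226, 179 and 177 in IFNγ + LPS + DGAT1i. The DGAT1i-treated libraries lay above the untreated ones in both states, and its call in IFNγ + LPS was lost when only the 6 libraries compared were fitted (adjusted p = 0.0743).

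With IFNγ + LPS, 8 of the 16 rose and 4 fell (75% called, beside 73.3% of all genes), led by Slc7a11 (5.63 ± 0.24), Jdp2 (5.54 ± 0.10), and Nupr1, a stress-induced chromatin protein (4.11 ± 0.23). In M0, DGAT1i raised 4 and lowered 2 (37.5% called, beside 24.4% of all genes), led by Slc7a11 (1.80 ± 0.40, edgeR adjusted p = 0.00720), Gdf15, a secreted stress hormone (1.44 ± 0.12, edgeR adjusted p = 3.5e-15), and Jdp2 (0.51). The Jdp2 call was lost without M0 replicate 2 or M0 + DGAT1i replicate 2 or 3 (log2 fold change 0.43 to 0.48, adjusted p 0.0641 to 0.111) and with DESeq2 (adjusted p = 0.0545). Gdf15, like Atf5, was highest in M0 + DGAT1i, at 37.6, 32.5 and 34.3 CPM beside 12.9, 15.0 and 10.4 in M0. It was at 25.9, 28.1 and 20.4 CPM in IFNγ + LPS and 25.3, 26.5 and 27.8 in IFNγ + LPS + DGAT1i. The response differed between the states for 5 of the 16 (31.2%, beside 18.5% of all genes), more negative in IFNγ + LPS for Slc1a4 (-1.66 ± 0.51), Gdf15 (-1.34 ± 0.17) and Jdp2 (-0.83) and more positive for Mthfd1l (0.85) and Slc1a5, a glutamine carrier (0.62). The Slc1a4 difference was lost without IFNγ + LPS replicate 1 or M0 + DGAT1i replicate 3 or IFNγ + LPS + DGAT1i replicate 3 (log2 fold change -1.45 to -1.35, adjusted p 0.0614 to 0.0775) and with DESeq2 (adjusted p = 0.0757). That of Slc1a5 was lost in 6 of the 12 sets with 1 library left out (log2 fold change 0.51 to 0.60), without a filter on low counts (adjusted p = 0.0838) and with DESeq2 (adjusted p = 0.104).

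Read against the promoter matches, the 9 tested members with the element core had a median log2 fold change of -0.51 with DGAT1i in IFNγ + LPS, with 8 lower and Atf3 higher. The 18 members searched and without it had a median of -0.21, with 9 lower and 1 higher. The 7 not searched had a median of -0.25. For the difference between the states the medians were -0.69, -0.34 and -0.31, with 8 of 9, 10 of 18 and 4 of 7 more negative. In IFNγ + LPS against M0, 6 of the 9 rose and 1, Iars, fell, beside 12 of the 18 higher and 5 lower, and 4 of the 7 higher and 2 lower. With DGAT1i in M0, the 9 members called higher were 3 of the 9 and 6 of the 18, and the 3 called lower were 2 of the 18 and 1 of the 7. Over all genes 16.3% fell with DGAT1i in IFNγ + LPS, 9.80% had a more negative difference, 37.1% rose with activation and 11.0% rose with DGAT1i in M0. The sequences of Psat1, Slc7a1 and Mthfd2, which fell with DGAT1i in IFNγ + LPS, held no TGATGNAA in these windows. These shares are a description, and no test was made of them.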

How the data were processed

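Bone marrow derived macrophages in 4 groups of 3 libraries were analysed, grouped by the titles in the labels. The deposited values are raw read counts per gene, made by the authors with the pipeline of their institute's bioinformatics core, and the submitters' processing notes name GRCm38 and DESeq2. The aligner, counting tool, annotation release and strand setting were not given in the sources used here. The methods name a stranded mRNA library kit and the labels a low-input kit, which was not resolved. Of the 47937 gene identifiers, 47224 were matched to GENCODE M21 for symbols and coordinates.

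Counts were filtered with filterByExpr, TMM-scaled and fitted over all 12 libraries with edgeR 4.0.16 in R 4.3.3 (quasi-likelihood test, 4 group means, 11760 genes). The difference between the DGAT1i responses was a contrast in the same fit. Benjamini-Hochberg adjustment ran over all genes tested, with a threshold of 0.05. A fold change is on the log2 scale with its SE from the fit, levels are TMM-scaled CPM, and the SD is over 3 libraries. IFNγ + LPS against M0 shares its libraries with both DGAT1i comparisons, and the DGAT1i comparisons share none with each other. The procedure was also run on simulated counts in which few genes changed, so that run does not bear on the scaling of IFNγ + LPS against M0.

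The members and lists were chosen with earlier results of these data known. Values in each library are given for members past the threshold by over 2-fold in a comparison of 2 groups, and for Atf4, Ddit3, Asns and Wars. From each other list, up to 3 genes a comparison were named, those with the largest change among genes past the threshold, without overlap and with a log2 CPM averaging 2 or more. Of the genes and promoter matches so chosen, 1 of each is not reported here. Eif2ak2 in M0, with DGAT1i in IFNγ + LPS Rars, Gcn1, Slc6a9, Pck2, Slc1a4, Herpud1 and Jdp2, and for the difference Rars, Slc1a4 and Slc1a5 were named after their values were seen. Near-identical copies were searched with BLAST 2.17.0. Alternatives were RLE and library-size scaling, no filter or a mean CPM of 1, DESeq2 1.42.0, the 6 libraries compared alone, a block on replicate number, and fits without 1 of the 12 libraries. Intervals on reads cover counting error only.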

Additional observations from a re-analysis of the deposited data

Results flagged for a closer look

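The response to DGAT1i differed between IFNγ + LPS and M0 cells by the interaction contrast of edgeR's quasi-likelihood test for 22 of the 34 members, and each difference below is the log2 response in IFNγ + LPS minus that in M0. Among stress factors it was -0.63 for Atf4, -1.22 for Atf5, -0.59 for Ddit3, -1.80 for Trib3 and -2.24 for Chac1. In synthesis it was -1.39 for Asns, -0.50 for Psat1 and -0.95 for Mthfd2, and in transport -1.08 for Slc7a1, -1.42 for Slc7a5 and -0.30 for Slc3a2. Among the synthetases it was -0.66 for Aars, -0.31 for Cars, -0.50 for Gars, -0.69 for Iars, -0.31 for Mars, -0.38 for Nars, -0.60 for Sars, -0.48 for Tars, -0.53 for Wars, -0.75 for Yars and -0.37 for Eprs. Over all genes tested 18.5% passed this contrast.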

How the results depend on the processing

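Scaling by library size alone gave 14 members lower in IFNγ + LPS than in M0 in place of 8, and over all genes 2340 higher and 7002 lower in place of 4361 and 4254. It turned the log2 fold change of Slc7a1 to -0.22, Lars to -0.27, Mars to -0.42, Nars to -0.36, Tars to -0.47 and Eprs to -0.066. In the same comparison Tars was at -0.020 with RLE scaling, -0.014 without a filter, -0.024 with DESeq2 and -0.016 with 6 libraries. Library-size scaling also gave -0.0050 for Ddit3 and -0.013 for Gars with DGAT1i in M0, and 0.029 for the Atf3 difference. With DGAT1i in IFNγ + LPS, Sesn2 was at -0.022 without a filter, and DESeq2 called 1 member higher in place of 3. DESeq2 called 26, 18, 10 and 19 members in the 4 comparisons in place of 30, 24, 12 and 22 (no adjusted p for the Chac1 difference), and over all genes 750 higher with DGAT1i in M0 in place of 1298 and 750 with a more negative difference in place of 1152. With 1 library left out the members called were 27 to 30, 20 to 25, 10 to 15 and 19 to 22, and those with a more positive difference 0 to 1, the latter without IFNγ + LPS replicate 1. With 1 library left out, values that did not pass the test and changed sign ranged in IFNγ + LPS against M0 from -0.079 to 0.089 (Tars), with DGAT1i in IFNγ + LPS from -0.26 to 0.13 (Ddit4), -0.095 to 0.11 (Sesn2) and -0.68 to 0.034 (Phgdh), with DGAT1i in M0 from -0.017 to 0.15 (Ddit3), -0.15 to 0.10 (Psph), -0.10 to 0.022 (Slc7a1), -0.031 to 0.0092 (Slc38a2) and -0.094 to 0.074 (Tars), and in the difference from -0.086 to 0.036 (Atf3) and -0.39 to 0.32 (Phgdh). The cause was not tested.

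Whether the replicate numbers pair the libraries was not settled. Over 18 same-numbered pairs r ran from -0.02 to 0.07, with 0 over 0.1. Between libraries of different groups and numbers it ran from -0.06 to 0.04. By mean r, 9 of 12 libraries correlated best with the libraries of their own number. With the replicate block 30, 24, 13 and 21 members were called. At 1 CPM, 4.28 to 7.58 reads limit Chac1, Ddit4 and Pycr1.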

Other observations

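Lars2, the mitochondrial leucyl-tRNA synthetase, varied more between libraries of a group than the other synthetases described. It was at 144, 189 and 619 CPM in M0, 574, 828 and 903 in M0 + DGAT1i, 66.7, 497 and 84.9 in IFNγ + LPS and 435, 189 and 746 in IFNγ + LPS + DGAT1i. Its log2 fold change with DGAT1i was 1.27 ± 0.85 in M0 (edgeR adjusted p = 0.343) and 1.06 ± 0.89 in IFNγ + LPS (edgeR adjusted p = 0.440).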
